A study of Mus musculus with 36 samples.

Results

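To examine the liver 12 h after the daily hypoxic period had ended, late in the active phase of the mice, RNA from livers of mice under chronic intermittent hypoxia (IH) was compared with that of control livers at ZT20. Zeitgeber time (ZT) counts hours from lights on, and ZT20 was the last of 6 time points spaced 4 h apart. The 6 libraries of this time point, 3 from IH mice and 3 from control mice, were taken out of 36 libraries by their labelled condition and time. All mice were male wild-type C57BL/6JRj, 16 weeks of age, housed 5 per cage under 12 h of light and 12 h of darkness, with chow and water always available. The IH group went through 60 cycles per hour between 21% and 5% oxygen from ZT0 to ZT8 each day for 4 weeks, and the control group received air to air cycles over the same hours. PolyA RNA was sequenced, and each gene carries a value in FPKM, which are fragments scaled by transcript length and by the size of the library. Whole liver was measured, so that fewer cells of a type and less RNA per cell cannot be told apart.

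In the mouse, the dark phase is the feeding phase, and hepatocytes then turn carbohydrate into fatty acids and sterols. The transcription factor SREBP1c (gene Srebf1) drives fatty acid synthesis genes under insulin, whereas SREBP2 drives the mevalonate and cholesterol pathway when sterols in the endoplasmic reticulum are low. In the fasting phase the balance moves to fatty acid oxidation, gluconeogenesis and amino acid breakdown. The circadian clock sets part of this timing through transcriptional activators such as BMAL1 (Arntl) and CLOCK and repressors such as PER, CRY and REV-ERB proteins.

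The FPKM values of the 6 ZT20 libraries summed to between 567446 and 607777, 15896 to 16105 symbols were above 0, and replicates correlated by 0.9917 to 0.9934 (Pearson, log2 scale, across genes). The steps between low FPKM values gave about 76100000 fragments for each IH library, from 66300000 to 71000000 for the control libraries and from 30900000 to 87400000 over all 36 libraries. The summed level of 7 hepatocyte markers was 57053.5 to 58582.0 FPKM in the IH libraries and 53554.6 to 57249.4 FPKM in the control libraries. None of the lists of stellate cell, sinusoidal endothelium, cholangiocyte or leukocyte markers held a member at P of 0.01 or less.

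Of 13215 genes whose mean reached 0.1 FPKM over the 36 libraries, 297 (2.25%) differed between IH and control at ZT20 at an unadjusted P of 0.01 or less (limma on log2(FPKM + 1), two-sided), the threshold the study used. Chance alone gives 1%. In the IH libraries 211 genes (1.60%) were higher and 86 genes (0.651%) were lower. These shares are the background for the counts of called members in the gene lists below. The split depended on the scaling: with each library scaled by its median ratio, 138 (1.04%) were higher and 165 (1.25%) lower, and after quantile normalization 144 (1.09%) and 155 (1.17%). Under the median ratio, 135 of the 211 and 83 of the 86 kept their call and direction. Among the genes named below, Acly, Chordc1, Cs, Cyp51, Dhcr7, Gadd45b, Mrps18b, Nfe2l2, Prkaca, Psmb9, Rhob, Tkt and Tpmt lost their call under both scalings, Bhlhe41 and Sc5d under the median ratio and Cdc42ep5, Orm3, Rpl29 and Stip1 under quantile normalization. A positive difference was found in 63.1% of all genes tested, and in 49.1% under the median ratio, which is the background for the counts of positive members below. The 3 libraries of one condition lay wholly above the 3 of the other for each of the 297 genes, which was also true of 1558 genes (11.8%) with IH above and of 552 genes (4.18%) with IH below among all genes tested. The shares of 11.8% and 4.18% are the background for the counts of members without overlap below. With 3 mice per group, an exact permutation test of a single gene cannot give a P under 0.10. After Benjamini-Hochberg adjustment over all genes, 1 gene had an adjusted p under 0.05 (limma), and 1309 genes had an unadjusted P under 0.05. The adjusted p of every other gene called lay between 0.28 and 0.44 (limma), so the single genes below are named by the unadjusted threshold. Most differences were small. Their median size was 0.33 on the log2(FPKM + 1) scale, 234 of the 297 were under 0.5 and 8 reached 1. This scale understates the change of genes with low FPKM.

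**Figure D1:**
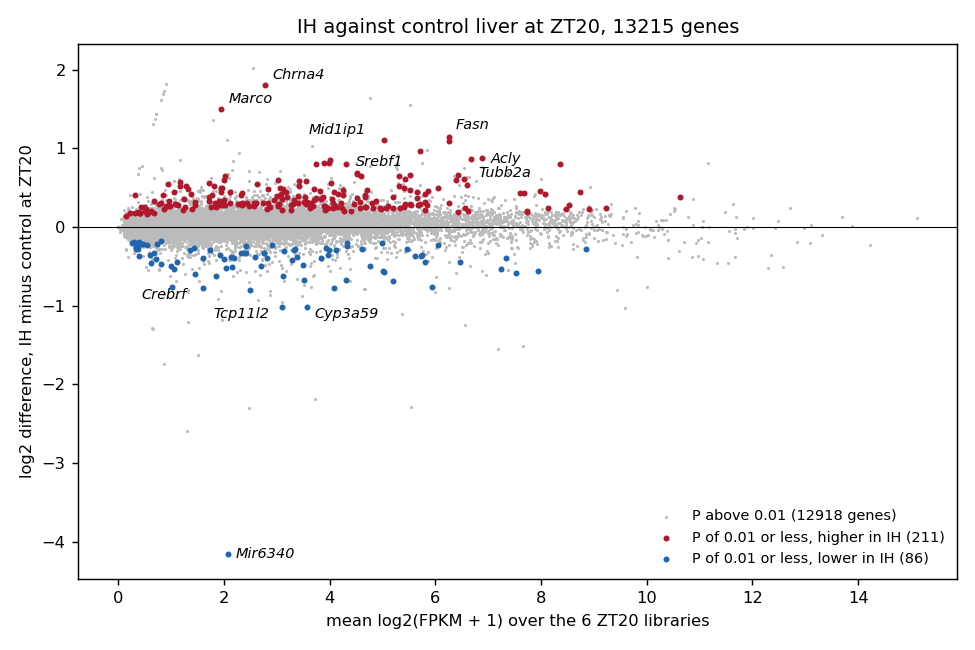
Difference between IH and control at ZT20 (vertical axis, log2(FPKM + 1)) against the mean level over the 6 ZT20 libraries (horizontal axis, same scale) for 13215 genes. Red points are the 211 genes higher and blue points the 86 genes lower in IH at P of 0.01 or less, and most coloured points lie within 0.5 of the zero line.

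The gene that passed the adjustment was Mir6340, a microRNA gene of 119 bases (chr2:173701030-173701148, mm10). It was listed at 0 in the 3 IH libraries and at 18.4, 14.4 and 18.2 FPKM in the control libraries (limma adjusted p = 3.4e-05), and no fold is given against values of 0. Over the 30 libraries of the other time points it was listed above 0 in 9, 6 of 15 IH libraries and 3 of 15 control libraries, with values between 10.8 and 34.0 FPKM. No library held a value between 0 and 10.8 FPKM, and a polyA library does not sample mature microRNAs. The mature sequence from RefSeq (GRCm38.p6, minus strand) is shown because this gene carries the lowest P; capitals mark the seed, bases 2 to 8.
mmu-miR-6340: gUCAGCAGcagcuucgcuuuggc

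Several genes of fatty acid synthesis rose in IH. Fasn, the multifunctional synthase that builds palmitate, rose from 51.0 ± 11.6 FPKM in control to 116 ± 33.6 FPKM in IH (SD, 3 libraries each). Mid1ip1, whose product promotes polymerisation and activity of acetyl-CoA carboxylase, rose with a difference of similar size. Srebf1, the regulator of this pathway, and Acly, which makes cytosolic acetyl-CoA from citrate, rose as well. Of 29 genes listed for de novo fatty acid synthesis, 4 rose (13.8%, against 1.60% of all genes tested) and none fell. The 4 at P of 0.01 were Fasn, Mid1ip1, Srebf1 and Acly. The median difference over this list was 0.28 on the log2 scale, against 0.03 over all genes tested, and 26 of 29 differences were positive.

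In the single libraries, Fasn (chr11:120805846-120824547) was at 151, 83.9 and 113 FPKM in IH and at 62.5, 51.3 and 39.3 FPKM in control. The groups did not overlap, and the log2 difference was 1.15 ± 0.24 (SE). Mid1ip1 (chrX:10715013-10719690) was at 57.6, 44.4 and 41.1 FPKM in IH and at 24.5, 23.4 and 16.8 FPKM in control, a difference of 1.11 ± 0.17. Every IH library thus lay above every control library for both genes. Srebf1 (chr11:60199089-60222581) was at 87.4, 76.4 and 56.8 FPKM in IH and at 37.0, 48.9 and 27.3 FPKM in control, a difference of 0.96 ± 0.23. Its lowest IH value lay close to its highest control value. Acly (chr11:100476353-100528000) was at 188, 106 and 199 FPKM against 94.0, 93.1 and 72.1 FPKM, a difference of 0.88 ± 0.24 that lay just inside the threshold.

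Other genes of this list had positive differences that did not pass. Pnpla3, a lipid droplet protein under SREBP1c, was at 9.38, 1.85 and 4.87 FPKM in IH and at 2.00, 0.995 and 0.717 FPKM in control (1.36 ± 0.46, SE), and the groups overlapped. For Elovl6, the elongase of palmitate, the difference was 0.54 ± 0.17. Acaca, acetyl-CoA carboxylase, differed by 0.28 ± 0.14, and Scd1, the desaturase that makes oleate, by 0.35 ± 0.33 (limma adjusted p = 0.74). The count of 4 came to 13 without IH library 2 and to 2 without IH library 1, control library 1 or control library 3.

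Many cholesterol synthesis genes were higher in IH at ZT20. Of 27 genes tested, 9 rose (33.3%, against 1.60% of all genes tested), none fell and 26 had a positive difference. In 16 each IH library lay above each control library, against 11.8% of all genes tested. The median difference was 0.43 on the log2 scale (0.38 after median ratio scaling, with 6 rising). Fdps makes farnesyl diphosphate, the branch point to sterols and prenyl groups, and was the most abundant of the 9. Pmvk and Mvd act in the mevalonate steps before it. Sqle and Lss convert squalene to lanosterol, and Cyp51, Sc5d and Dhcr7 act in the steps from lanosterol to cholesterol.

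Fdps (chr3:89093588-89101959) was at 515, 331 and 462 FPKM in IH and at 246, 255 and 238 FPKM in control, a log2 difference of 0.79 ± 0.16 (SE). The control libraries were close together and the IH libraries spread, all above them. Lss (chr10:76531588-76557138) was at 26.9, 16.5 and 19.5 FPKM against 10.8, 12.7 and 9.50 FPKM, a difference of 0.86 ± 0.18. Pmvk (chr3:89454541-89469013) was at 126, 87.7 and 109 FPKM against 72.0, 67.4 and 62.3 FPKM, a difference of 0.66 ± 0.13. Sqle (chr15:59315077-59331192) was at 63.4, 44.3 and 49.6 FPKM against 34.2, 37.5 and 29.8 FPKM, a difference of 0.61 ± 0.14. In each of these genes IH library 1 was the highest and IH library 2 the lowest of the IH libraries. Differences of others that rose were 0.69 for Mvd, 0.50 for Cyp51, 0.46 for Dhcr7 and 0.43 for Sc5d.

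Hmgcs1, which makes HMG-CoA, differed by 0.59 ± 0.20 (SE) and Idi1 by 0.64 ± 0.19. Srebf2 itself differed by 0.24 ± 0.17, and none of these 3 genes passed. The count of 9 rested on some libraries: it was 5 without IH library 1, 3 without control library 1 and 2 without control library 3, and it was 12 without IH library 2.

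**Figure D2:**
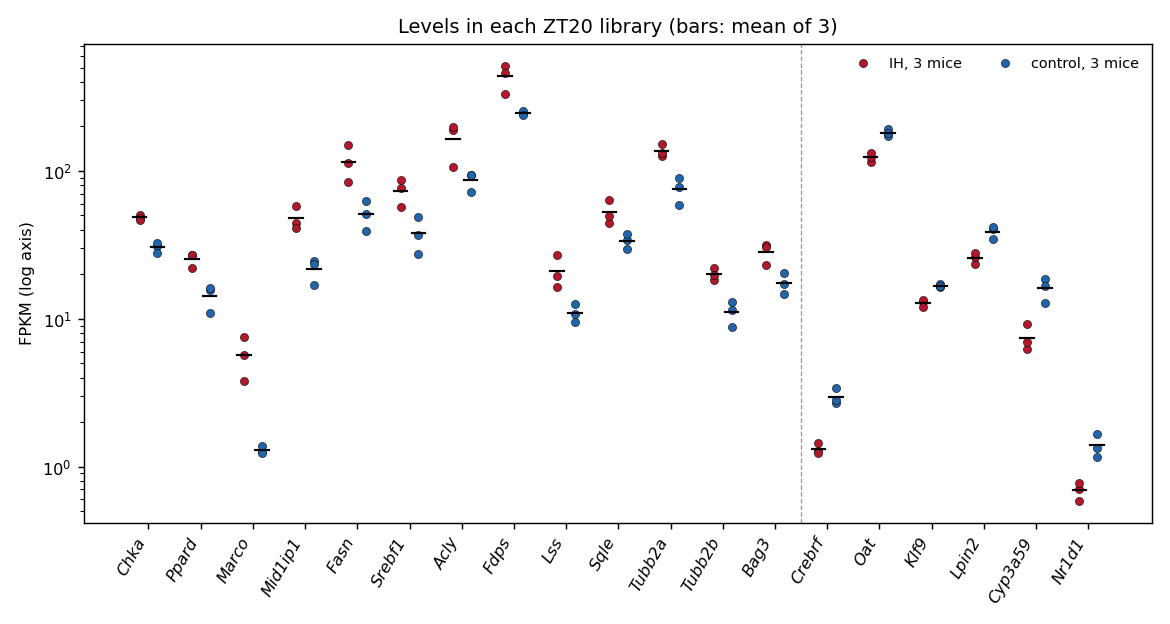
FPKM (log axis) of 19 named genes in each ZT20 library, with red points for the 3 IH mice, blue points for the 3 control mice and bars for the mean of 3. Genes left of the dashed line were higher in IH and genes right of it lower, and in none of them do the IH and control points overlap.

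To show what these promoters share, the 250 bases before each listed start site were read from RefSeq windows (GRCm38.p6) and searched on both strands. A gene was counted if any of its windows matched. Shares of genes and the share of all windows are therefore not the same measure. The pentamer CCAAT, the NF-Y box, was present in 16 of the 19 cholesterol list genes that had a window (84.2%) and in 14 of 23 fatty acid synthesis genes (60.9%), against 40.3% of 9981 tested genes and 33.8% of all 32851 windows. The E-box CACGTG was found in 5 of the 19 (26.3%) and in 2 of the 23 fatty acid synthesis genes (8.70%), against 9.85% of tested genes with a window. The sterol regulatory element letters TCACNCCAC were found in 1 of the 19, Hmgcs1, in 0 of the 23 and in 1.31% of tested genes with a window. In lists described below, CCAAT was present in 16 of 32 heat shock chaperone genes with a window (50%). It was present in 18 of 58 cytosolic ribosomal protein genes (31%), a share under the 40.3% of tested genes. These letters were chosen with the results of the lists known and are a description of the windows. A window could hold more than 1 of these sets of letters, and Acly and Mid1ip1 held no CCAAT in the last 120 bases before their start. The 120 bases before the start of 4 genes that rose are shown, 5′ to 3′ on the strand of the gene, to place these letters beside the values above; capitals mark CCAAT or its complement ATTGG. They lie at chr11:120824548-120824667 on the minus strand for Fasn, chr10:76531485-76531604 on the plus strand for Lss, chr8:122443423-122443542 on the minus strand for Mvd and chr9:42264301-42264420 on the minus strand for Sc5d.
Fasn: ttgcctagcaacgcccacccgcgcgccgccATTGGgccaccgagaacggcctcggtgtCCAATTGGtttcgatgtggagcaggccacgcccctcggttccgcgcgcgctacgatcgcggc
Lss: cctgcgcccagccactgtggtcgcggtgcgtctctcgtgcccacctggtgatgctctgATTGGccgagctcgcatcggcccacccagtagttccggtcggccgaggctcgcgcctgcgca
Mvd: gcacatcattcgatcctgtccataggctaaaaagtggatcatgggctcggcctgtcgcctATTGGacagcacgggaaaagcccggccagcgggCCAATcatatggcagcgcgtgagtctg
Sc5d: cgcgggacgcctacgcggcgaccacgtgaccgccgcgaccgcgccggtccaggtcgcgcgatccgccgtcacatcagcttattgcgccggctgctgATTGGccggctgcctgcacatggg

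Fasn held 3 matches in this stretch, of which 2 overlapped, Mvd 2, and Lss and Sc5d 1 each. Cyp51, which also rose, held 1 match.

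Most tubulin genes tested were higher in IH at ZT20. Alpha- and beta-tubulins are the building blocks of microtubules, and their mRNAs are held in balance with the pool of free tubulin. This family was singled out after its values were seen, so its count is a description. Of 11 alpha- and beta-tubulin genes that passed the filter, out of 17 listed, 7 rose, against 1.60% of all genes tested, and none fell. The 7 were Tuba1a, Tuba1b, Tuba1c, Tuba4a, Tubb2a, Tubb2b and Tubb4b. The median difference over the 11 genes was 0.52 on the log2 scale. Tubulin paralogs share long stretches of sequence, so that fragments could be split between them. The summed level of the family was 489 to 573 FPKM in the IH libraries and 280 to 390 FPKM in the control libraries, and the sums did not overlap.

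Tubb2a (chr13:34074274-34078007) was at 153, 126 and 133 FPKM in IH and at 77.9, 89.8 and 59.2 FPKM in control, a log2 difference of 0.87 ± 0.16 (SE). Tubb2b, its neighbour on the same chromosome (chr13:34126748-34130466), was at 22.2, 18.2 and 19.8 FPKM against 11.5, 13.0 and 8.79 FPKM, a difference of 0.82 ± 0.14. In both genes the lowest IH library stood well clear of the highest control library. Tubb4b was at 116, 92.5 and 98.0 FPKM against 65.9, 79.8 and 57.3 FPKM (0.59 ± 0.14), and Tuba1b at 51.5, 45.3 and 44.2 FPKM against 33.1, 37.2 and 27.4 FPKM (0.52 ± 0.12). The other 3 differed by 0.66 (Tuba1c), 0.61 (Tuba4a) and 0.49 (Tuba1a), and Tubb5 differed by 0.42 without passing. Tuba8 and Tubb4a, at about 1 FPKM or less, differed by 0.01 and −0.04. Actb, the cytoplasmic actin, rose by 0.42 ± 0.10 with libraries at 339, 330 and 272 FPKM against 222, 244 and 234 FPKM. The count of 7 was 2 without IH library 1 and 3 without control library 1.

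Differences of chaperone genes were positive and smaller. Heat shock chaperones fold or refold proteins under stress and are induced through HSF1. All 39 members tested had a positive difference at ZT20, and the median difference was 0.21 on the log2 scale. At P of 0.01, 4 rose (10.3%, against 1.60% of all genes tested) and none fell. In 21 of the 39 the 3 IH libraries lay above the 3 control libraries, against 11.8% of all genes tested. After median ratio scaling 37 were positive and 3 rose, with a median of 0.16. The 4 were Bag3, a co-chaperone of HSP70 that links it to autophagy, Hspa2, an HSP70 family member, and the HSP90 co-chaperones Stip1 and Chordc1.

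Bag3 (chr7:128523616-128546981) was at 23.1, 31.4 and 30.6 FPKM in IH and at 17.1, 14.6 and 20.3 FPKM in control, a log2 difference of 0.68 ± 0.15 (SE). Stip1 (chr19:7020702-7039967) was at 54.2, 66.1 and 53.3 FPKM against 39.0, 48.3 and 39.5 FPKM, a difference of 0.44 ± 0.12. For both genes IH library 2 was the highest of the 6. Hspa2 differed by 0.30 ± 0.07 and Chordc1 by 0.26 ± 0.07. None of the 4 was called without control library 1 or without IH library 2, 1 was called without control library 3, and 7 of the list were called without IH library 1. The letters GAANNTTC, the core of the heat shock element, were present in the 250 bases before the start of 8 of 32 chaperone genes with a window (25%), against 6.29% of tested genes with a window. Those 8 were Hspa1a, Hspa1b, Hspd1, Hspe1, Hspb1, Dnaja1, Fkbp4 and Cct2. Bag3, Hspa2, Stip1 and Chordc1, the 4 that rose, were not among them. The unfolded protein response list covers stress of the endoplasmic reticulum and had a median of 0.17. It had 1 of 34 genes higher and 1 lower (2.94% each, against 1.60% and 0.651% of all genes tested). Its higher gene was the stress-induced transcription factor Atf3 (0.40 ± 0.09) and its lower gene Chac1, a glutathione-degrading enzyme (−0.76 ± 0.19). The median of this list was 0.29 at ZT0, 0.07 at ZT8 and −0.03 at ZT16, with none called. At ZT4 it was −0.41, with 16 of 34 lower (47.1%, against 2.93% of all genes) and 1 higher. At ZT12 it was 0.50, above that of ZT20, with 3 higher, against 0.219% of all genes.

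Ribosomal protein genes had small positive differences. All 78 cytosolic ribosomal protein genes had a positive difference, and 11 rose at P of 0.01 (14.1%, against 1.60% of all genes tested). In 62 the 3 IH libraries lay above the 3 control libraries, against 11.8% of all genes tested. Their median difference was 0.16 on the log2 scale, and it was 0.10 with 4 rising after median ratio scaling. Rpl30 was at 12.9, 13.0 and 14.5 FPKM in IH and at 9.09, 7.01 and 9.96 FPKM in control (0.59 ± 0.12, SE), and Rpl37a at 216, 234 and 224 FPKM against 163, 190 and 150 FPKM (0.43 ± 0.09). Rps28 and Rpl29 rose by 0.28 and 0.24. The count of 11 was between 1 and 3 with any one of IH libraries 1, 2 or 3 or control libraries 1 or 3 left out, and 7 without control library 2. Ribosomal protein genes have many near-identical processed copies, and the share of fragments given to each gene is uncertain for that reason. The cytosolic list was not particular to ZT20, with medians of 0.16 at ZT0, 0.19 at ZT4, 0.16 at ZT8 and 0.12 at ZT16. Its median was −0.33 at ZT12. Members called higher were 3 at ZT0, 1 at ZT4 (1.28%), 16 at ZT8 and none at ZT12 or ZT16. Over all genes tested the shares called higher were 0.401% at ZT0, 9.08% at ZT4, 1.63% at ZT8, 0.219% at ZT12 and 1.20% at ZT16. At ZT20, 2 of 76 mitochondrial ribosomal protein genes were higher (2.63%, near the 1.60% of all genes tested), with a median of 0.09. They were Mrps6 (0.27) and Mrps18b (0.24). None of 36 proteasome genes passed, though 34 were positive, 11 had an unadjusted P under 0.05 and the median was 0.13 (limma).

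**Figure D3:**
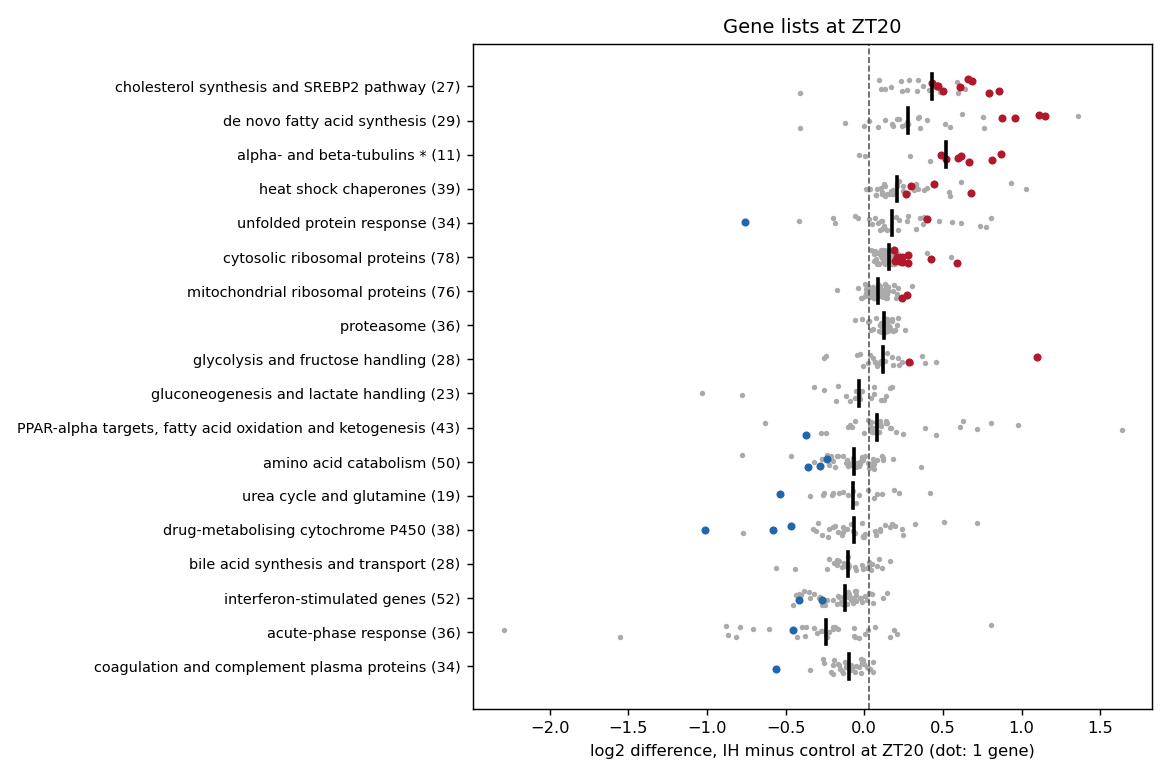
Difference between IH and control at ZT20 (horizontal axis, log2(FPKM + 1)) for the members of 18 gene lists, with the number of members tested in brackets. Each dot is 1 gene, red where it rose and blue where it fell at P of 0.01, the short black bar is the median of the list and the dashed line the median of all genes tested (0.03); the star marks the tubulin list, chosen after its values were seen. The cholesterol, fatty acid synthesis and tubulin medians lie farthest to the right (0.43, 0.28 and 0.52) and the acute-phase median farthest to the left (−0.24).

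Several single genes rose with small spread. Chka, choline kinase, which starts the CDP-choline route to phosphatidylcholine (chr19:3851773-3894369), was at 50.5, 48.1 and 46.9 FPKM in IH and at 31.3, 28.0 and 32.5 FPKM in control. The groups were far apart for their spread, with a log2 difference of 0.65 ± 0.07 (SE, limma adjusted p = 0.28). Ppard, the nuclear receptor PPAR-delta (chr17:28232700-28301474), was at 27.0, 22.2 and 27.1 FPKM against 15.7, 11.0 and 16.2 FPKM, a difference of 0.80 ± 0.16. Bcl3, a nuclear member of the I-kappaB family (chr7:19808462-19822770), was at 18.2, 21.4 and 16.5 FPKM against 9.99, 11.7 and 8.84 FPKM, a difference of 0.82 ± 0.13. Neither gene showed overlap between the groups. Atf5, a stress-related bZIP factor abundant in liver, rose by 0.46 ± 0.08. Jmjd6, a dioxygenase of the JmjC family, rose by 0.39, Shroom1 by 0.52, Iffo2 by 0.55 and Ccdc69 by 0.54. The values of a pair of pseudogenes that rose are uncertain because they share sequence with other genes, namely H2-K2, a transcribed pseudogene of the MHC class I region (0.60) and Gm6682, a processed pseudogene on chromosome 12 (0.60).

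Marco, a scavenger receptor of Kupffer cells (chr1:120474538-120505024), was at 5.68, 3.77 and 7.54 FPKM in IH and at 1.26, 1.38 and 1.23 FPKM in control. The control values were nearly alike and the IH values all above them, and the log2 difference was 1.50 ± 0.20 (SE, limma adjusted p = 0.40). Marco was the sole one of 8 Kupffer cell markers that passed (12.5%, against 1.60% of all genes tested). The summed level of the 8 markers was 69.7 to 109 FPKM in the IH libraries and 68.1 to 95.8 FPKM in the control libraries, and the defining marker Clec4f was at 14.3, 9.58 and 12.0 FPKM against 13.4, 10.1 and 16.3 FPKM. The sums of the marker list thus overlapped between the groups while Marco did not. The summed level of 9 leukocyte markers was 19.3 to 24.8 FPKM in IH and 14.9 to 18.6 FPKM in control without overlap, with Lyz2 at 22.9, 16.7 and 21.9 FPKM against 14.5, 12.0 and 16.3 FPKM (0.49 ± 0.15). Their part in the rise of Marco was not tested. Among neutrophil markers S100a9 fell, from 0.598 to 1.03 FPKM in control to 0.179 to 0.382 FPKM in IH. Among the genes that rose, the greatest log2 difference was that of Chrna4, a nicotinic acetylcholine receptor subunit (1.81 ± 0.43), but its IH libraries ranged from 5.60 to 19.6 FPKM and its control libraries from 1.64 to 3.76 FPKM, and the call was lost without IH library 1 or 3 or control library 1 or 3.

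Crebrf, which regulates the CREB3 family of transcription factors (chr17:26715650-26776635), was at 1.27, 1.45 and 1.23 FPKM in IH and at 3.41, 2.69 and 2.83 FPKM in control, a log2 difference of −0.78 ± 0.09 (SE, limma adjusted p = 0.28). Klf9, a transcription factor induced by glucocorticoids (chr19:23141226-23168134), was at 13.0, 13.4 and 12.1 FPKM against 16.5, 17.1 and 16.6 FPKM, a difference of −0.36 ± 0.06. Both groups of libraries were tight and separate in these genes. Lpin2, a phosphatidate phosphatase (chr17:71182560-71249817), was at 23.4, 26.0 and 28.0 FPKM against 40.3, 34.6 and 41.6 FPKM, a difference of −0.57 ± 0.10. Fbxo32, the ubiquitin ligase atrogin-1, was low throughout, at 0.155, 0.137 and 0.164 FPKM against 0.465, 0.364 and 0.368 FPKM. Ypel2 fell by 0.50, Rnf125, a ubiquitin ligase, by 0.68, and Mcm10, a DNA replication factor, by 0.78. Klhl24 and Ccng2, the atypical cyclin G2, each fell by 0.62 and were picked out after their values were seen. Tcp11l2 fell by 1.02 and Cdc42ep5, an effector of the GTPase CDC42, by 0.80. Over 24 glucocorticoid receptor targets, 1 fell (Klf9), 1 rose (the growth arrest gene Gadd45b, 0.36) and the median was −0.10. That is 4.17% each, against 0.651% lower and 1.60% higher of all genes tested.

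The genes of amino acid catabolism that passed were lower in IH. Of 50 genes, 3 fell (6%, against 0.651% of all genes tested; 5 fell under the median ratio), none rose, 36 had a negative difference and the median was −0.06. The 3 were Kynu, kynureninase of tryptophan breakdown (−0.36), Mat1a, the S-adenosylmethionine synthetase of hepatocytes (−0.28), and Amdhd1 of histidine breakdown (−0.23). The call of Amdhd1 was lost without IH library 1 or 2 or control library 2 or 3. It was also lost with libraries scaled to a common sum, without the intensity trend and with the spread taken from all 36 libraries. Oat, ornithine aminotransferase (chr7:132557478-132576398), was at 116, 125 and 133 FPKM in IH and at 192, 172 and 180 FPKM in control, a log2 difference of −0.54 ± 0.07 (SE), and each IH library lay far below each control library. Hykk, the kinase of hydroxylysine, fell by 0.48 and Upp2, a uridine phosphorylase, by 0.76. Cpt1a, which admits long-chain fatty acids to mitochondria, was at 43.0, 41.2 and 42.4 FPKM against 50.9, 50.5 and 64.4 FPKM (−0.37 ± 0.10). It was the sole one of 43 PPAR-alpha target genes to pass (2.33%, against 0.651% of all genes tested). The call of Cpt1a was lost without any one of the 3 IH libraries, and the median of the PPAR-alpha list was 0.08.

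Cyp3a genes were lower in IH. They encode the cytochrome P450 enzymes that oxidise many drugs and steroids, and they lie in a cluster of near-identical copies on chromosome 5, so that the split of fragments between them is uncertain. This family was singled out after its values were seen. Of the 6 Cyp3a genes that passed the filter, 3 fell (Cyp3a59, Cyp3a25 and Cyp3a44), against 0.651% of all genes tested. In all 6 each IH library lay below each control library, against 4.18% of all genes tested. The median difference was −0.52 on the log2 scale. Cyp3a59 (chr5:146079257-146113287) was at 6.23, 9.22 and 6.94 FPKM in IH and at 18.6, 16.7 and 12.9 FPKM in control, a difference of −1.01 ± 0.17 (SE). Cyp3a25 (chr5:145977194-146009618) was at 144, 167 and 141 FPKM against 260, 232 and 190 FPKM, a difference of −0.58 ± 0.13. Cyp3a11, the most abundant member, was at 675, 892 and 819 FPKM against 1111, 1911 and 1148 FPKM, and its difference of −0.77 ± 0.22 missed the threshold. The summed level of the family was 884 to 1130 FPKM in the IH libraries and 1415 to 2226 FPKM in the control libraries, without overlap. The count of 3 was 1 without IH library 1 or IH library 3. Over the 38 cytochrome P450 genes of drug metabolism these 3 were the members that passed (7.89%, against 0.651% of all genes tested), and the median was −0.07.

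Interferon-stimulated, acute-phase and coagulation and complement genes had mostly negative differences, against 36.7% of all genes tested. Of 52 interferon-stimulated genes 45 had a negative difference, with a median of −0.12. The 2 that fell (3.85%, against 0.651% of all genes tested) were the immunoproteasome subunit Psmb9 (−0.42) and the transcription factor Irf7 (−0.27). The median of this list was −0.17 at ZT0, −0.20 at ZT4 with 14 lower (26.9%) and −0.16 at ZT8 with 7 lower. It was −0.09 at ZT12 with 1 lower and −0.02 at ZT16. Over all genes tested 2.93% were lower at ZT4, 0.916% at ZT8 and 0.212% at ZT12. The acute-phase median was 0.38 at ZT0, −0.05 at ZT8 with 1 lower, −0.07 at ZT12 and −0.62 at ZT16. At ZT4 it was −0.60, with 6 lower (16.7%) and 1 higher. At ZT20, 29 of 36 acute-phase genes were negative, with a median of −0.24, and Orm3, an orosomucoid, fell by 0.45. Hamp, the iron hormone hepcidin and a member of this list, was at 3033, 3769 and 2457 FPKM in IH and at 1605, 2637 and 1235 FPKM in control (0.81 ± 0.29, SE). Of 34 coagulation and complement genes 29 were negative, with a median of −0.10. The complement component C9 fell by 0.56 from 355, 238 and 318 FPKM to 206, 201 and 200 FPKM. Its call was lost without any one IH library, without control library 1 and without control library 3.

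Hypoxia target genes gave 1 call in each direction at this time. Of 30 genes induced through HIF, Pfkfb4, a fructose 2,6-bisphosphate enzyme, rose by 0.18 and Kdm3a, a histone demethylase, fell by 0.30, which is 3.33% each against 1.60% and 0.651% of all genes tested. The median was 0.10, and in 6 of the 30 each IH library lay above each control library, against 11.8% of all genes tested. Ldha, lactate dehydrogenase A, was at 387, 373 and 329 FPKM in IH and at 393, 314 and 338 FPKM in control (0.06 ± 0.10, limma adjusted p = 0.87). Glycolytic and fructose handling genes had 2 of 28 higher (7.14%, against 1.60% of all genes tested), among them the pentose phosphate enzyme Tkt (0.28), and a median of 0.12. Cs, citrate synthase, rose by 0.47 as the sole one of 28 genes of the TCA cycle and pyruvate dehydrogenase (3.57%, against 1.60%). It was not called under the median ratio, under quantile normalization or without any one of 5 of the 6 libraries. Pck1, the gluconeogenic carboxykinase, was at 212, 782 and 920 FPKM in IH and at 1026, 924 and 1373 FPKM in control, a difference of −1.03 ± 0.53 with IH library 1 far below the other 5 libraries. The remaining transcripts that the study followed gave small differences: Gys2 0.03, Pygl 0.12, Idh3a 0.20, Cox6a1 0.23, Cpt2 0.04, G6pc −0.18, Cyp7a1 −0.17, Creb1 0.06 and Fbp1 −0.17. None of these passed.

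Of 8 clock activators and nuclear receptors of the clock 1 fell (Nr1d1, 12.5%, against 0.651% of all genes tested). Of 12 clock repressors 1 rose (Bhlhe41, 8.33%, against 1.60% of all genes tested). Nr1d1, which encodes the repressor REV-ERB alpha (chr11:98767932-98775333), was at 0.710, 0.585 and 0.776 FPKM in IH and at 1.67, 1.17 and 1.35 FPKM in control, a log2 difference of −0.50 ± 0.09 (SE). Nr1d2, encoding REV-ERB beta, was at 1.29, 1.79 and 1.67 FPKM against 2.96, 2.15 and 2.21 FPKM (−0.41 ± 0.12). For both genes each IH library lay below each control library, though Nr1d2 did not pass. Per2 was at 6.68, 9.60 and 5.43 FPKM against 3.20, 5.49 and 3.52 FPKM, and the groups overlapped (0.70 ± 0.23). Bhlhe41, the repressor DEC2, rose by 0.18 at a level under 0.3 FPKM, a call lost under the median ratio and without any one of 5 of the 6 libraries. Arntl (0.07), Clock (0.06), Cry1 (0.17), Cry2 (0.01), Per1 (0.18), Per3 (−0.04) and Rora (−0.19) did not pass.

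The remaining gene lists held few calls. NF-kappaB signalling had 2 of 25 higher (8%, against 1.60% of all genes tested), Bcl3 and the inhibitor Tnfaip3 (0.26). Immediate early genes had 3 of 30 higher (10%), Atf3, Gadd45b and Rhob. Single members passed among antioxidant genes (Nfe2l2, the NRF2 factor, 0.25), CREB pathway genes (Prkaca, the catalytic subunit of protein kinase A, 0.22), phase II conjugation genes (Tpmt, −0.30) and pericentral genes (the Wnt antagonist Rnf43, 0.44, beside Oat). Under the median ratio and under quantile normalization Nfe2l2, Prkaca and Tpmt were not called. In 23 of 50 lists with at least 5 members tested, no member had a P of 0.01 or less (limma), and their medians lay between −0.15 and 0.13.

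To ask how the ZT20 pattern related to the rest of the day, the same genes were read at the time points on either side, which used different mice in both groups. Of the 211 genes higher at ZT20, 155 (73.5%) had a positive difference at ZT0, 4 h later, against 44.4% of all genes tested, and 11 were also called higher there (5.21%, against 0.401% of all genes). At ZT16, 140 (66.4%) were positive against 59.4% of all genes, and 11 were called higher (5.21%, against 1.20%). The median over the fatty acid synthesis list was 0.22 at ZT0 with 3 higher and 0.29 at ZT16 with 1 higher. At ZT4 it was 0.22 with 5 higher (17.2%, against 9.08% of all genes) and 2 lower. It was 0.12 at ZT8 with 1 lower and 0.10 at ZT12 with none called. The median over the cholesterol list was 0.44 at ZT0 and 0.32 at ZT16, with 4 members higher and none lower at each. At ZT4, during hypoxia, that median was −0.01 with 2 higher and 1 lower, at ZT8, the end of the hypoxic period, it was 0.22 with no member called at P of 0.01, and at ZT12 it was 0.05. Of the 86 genes lower at ZT20, 51 (59.3%) had a negative difference at ZT0 against 55.4% of all genes, with 2 called lower there against 0.409% of all genes, and 48 (55.8%) at ZT16 against 40.5%, with 1 called lower against 0.416%.

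To test which differences were particular to ZT20, the difference between IH and control at ZT20 was set against the mean of the same difference at the other 5 time points (limma, all 36 libraries). At an unadjusted P of 0.01 or less 79 genes (0.598%) differed, 49 upward and 30 downward, fewer than the 1% that chance alone gives, and none had an adjusted p under 0.05 (limma, smallest 0.77, with 408 at an unadjusted P under 0.05). The count was 124 without control library 2 of ZT12, whose FPKM values summed to 808274. The genes with the smallest P upward were Ppard, whose difference at ZT20 exceeded its mean at the other times by 0.80, Tubb4b, G6pdx, Gm6682 and Tuba1b. Those with the smallest P downward were Fbxo32, Ppil6, Ppp1r3g, 4930412C18Rik and Rhebl1, all at low levels. G6pdx, the first enzyme of the pentose phosphate route, was at 6.97, 2.36 and 7.42 FPKM in IH and at 1.74, 1.82 and 1.94 FPKM in control at ZT20. Ppp1r3g, a glycogen-targeting phosphatase subunit, was at 0.0830, 0.163 and 2.43 FPKM against 1.86, 2.18 and 4.91 FPKM. In both genes 1 IH library stood apart from the other two, library 2 for G6pdx and library 3 for Ppp1r3g. The difference of Fasn at ZT20 was above its mean at the other times by 0.49 and that of Fdps by 0.42, and neither passed this test. That of Crebrf lay below by 0.76 and passed at an unadjusted P of 0.01.

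The tubulin genes turned direction between ZT4 and ZT20. At ZT4, 2.93% of all genes tested were lower and 9.08% higher in IH at P of 0.01. Of the 11 tubulin genes 7 were lower there and none higher, with a median of −0.39, whereas 7 were higher at ZT20. Their median was also positive at ZT0, at 0.27, with 2 higher, against 0.401% of all genes. It was −0.07 at ZT8, with 2 lower against 0.916% of all genes. At ZT12 and ZT16 it was 0.10 and 0.001, with none called. Tubb2a was at 49.4, 34.3 and 23.7 FPKM in IH and at 107.9, 74.1 and 86.2 FPKM in control at ZT4, the reverse of its order at ZT20. Among heat shock chaperones 15 of 39 (38.5%) were lower and 2 (5.13%) higher at ZT4, the latter share below that of all genes, with a median of −0.17. Positive chaperone medians were not particular to ZT20. The median was 0.05 at ZT0, −0.08 at ZT8, 0.28 at ZT12 and −0.05 at ZT16, beside 0.21 at ZT20. No chaperone was called at ZT0, ZT8 or ZT12, and 1 was lower at ZT16, against 0.416% of all genes. Over all genes tested, 20 were called in opposite directions at ZT4 and ZT20 and 45 in the same direction.

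**Figure D4:**
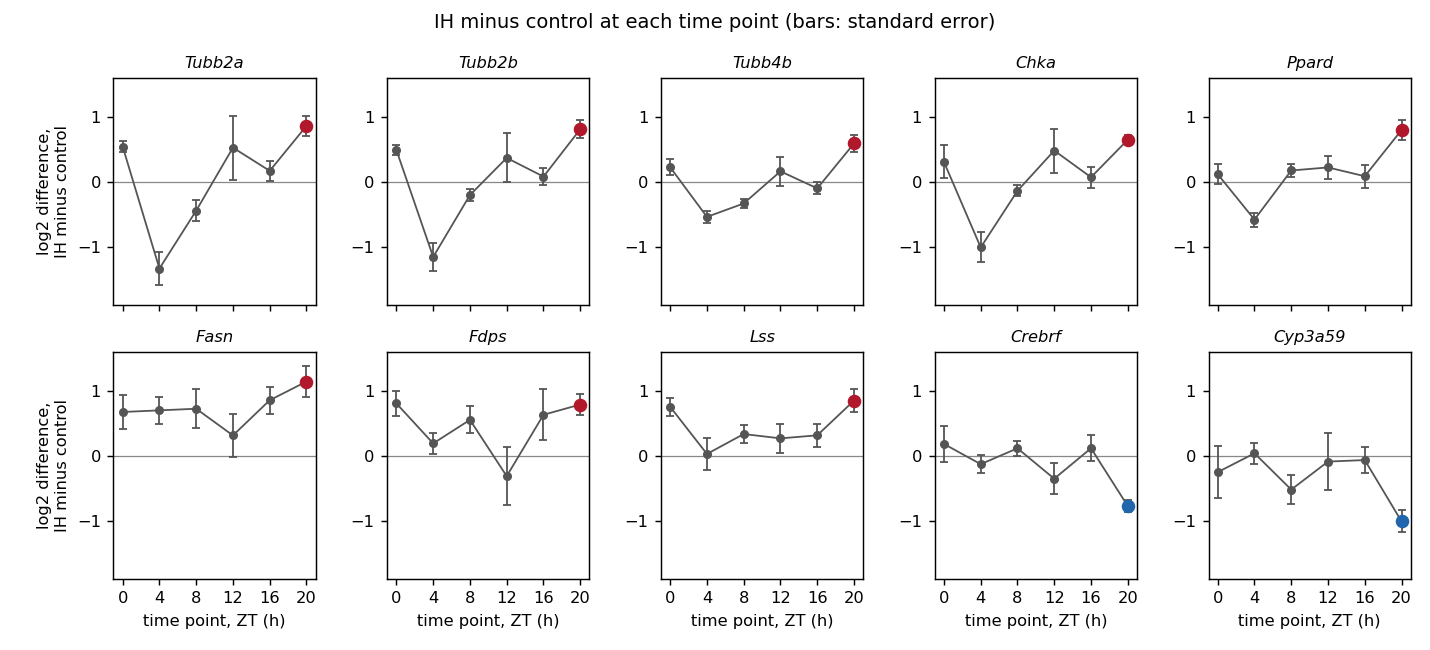
Difference between IH and control (vertical axis, log2(FPKM + 1), bars for the standard error) at each of 6 time points (horizontal axis, hours of ZT) for 10 genes, with ZT20 in colour. The upper row shows genes that lay below zero at ZT4 and above it at ZT20, from −1.34 to 0.87 for Tubb2a; in the lower row Fasn lay above zero at every time point, and Crebrf and Cyp3a59 had their lowest value at ZT20 (−0.78 and −1.01).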

How the data were processed

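The authors aligned paired reads of 100 bases from polyA libraries to mm10 with TopHat2 2.1.1 and deposited FPKM values per gene and library made with Cufflinks 2.2.1, as named in the methods and the submitters' processing notes. The gene annotation and the strand setting of the counting are not given in the sources used here. Each table holds 1 condition, read from its name, and time point and replicate from its column names, which match the sample labels. Of 24883 rows, the 280 symbols on more than 1 row were left out, leaving 24066, of which 14828 were above 0 in all 6 ZT20 libraries and 23072 were found in GENCODE vM21 for coordinates. The files hold no counts. Depth was estimated from the steps between low FPKM values, which gene length also sets, so no count test was run.

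The moderated test of limma 3.58.1 (R 4.3.3) with an intensity trend was run on log2(FPKM + 1) of the 6 ZT20 libraries without covariates, for genes averaging 0.1 FPKM or more across the 36 libraries, with Benjamini-Hochberg adjustment over all 13215. The study used a regularized test at the same unadjusted P of 0.01. Each library is 1 mouse. The fit was tested on simulated data. Across genes, deviations from the group mean correlated by 0.134, 0.164 and 0.05 between same-numbered libraries of the conditions. Between libraries of different number they correlated by −0.129 to 0.002. The labels give no pairing of mice, so the main fit used none, and a fit with the replicate number as a block is given below. Other pseudocounts, filters, scalings, fits and left-out libraries were tried.

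Genes were named by a rule: the 12 smallest P and 8 largest differences in each direction, the liver transcripts the study names, up to 4 called members of each list, and the 5 smallest P in each direction of the test against other time points. The other members of the cholesterol, fatty acid, tubulin and Cyp3a groups and Actb, Klhl24 and Ccng2 were named after their values were seen. The comparison, the rule and the lists were chosen with earlier results of these data known. Some genes that the rule names are not reported here, though counts over the lists include them.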

Additional observations from a re-analysis of the deposited data

Results flagged for a closer look

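In 9 genes the difference between IH and control at ZT20 differed from that at ZT4 at an adjusted p under 0.05 (limma, interaction over 36 libraries, a contrast chosen after the data were seen) and was called at ZT20. Each is given as the log2 difference at ZT20 minus that at ZT4. The tubulins were Tubb2a (2.21, adjusted p = 0.033), Tubb2b (1.98, adjusted p = 0.0092), Tubb4b (1.14, adjusted p = 0.020), Tuba1c (1.13, adjusted p = 0.045) and Tuba1b (0.82, adjusted p = 0.045). The others were Chka (1.67, adjusted p = 0.045), Ppard (1.38, adjusted p = 0.0092), the co-chaperone Stip1 (1.18, adjusted p = 0.045) and the pseudogene Gm6682 (0.96, adjusted p = 0.023). In all 9 the 3 IH libraries lay below the 3 control libraries at ZT4 and above them at ZT20. At ZT4 Chka was at 20.2, 10.4 and 11.6 FPKM in IH and at 32.7, 27.5 and 25.1 FPKM in control, Ppard at 2.97, 2.67 and 2.51 FPKM against 5.41, 4.40 and 3.97 FPKM, and Stip1 at 25.1, 23.6 and 22.9 FPKM against 41.7, 42.8 and 36.5 FPKM. In total 18 genes passed this test, and no gene had an adjusted p under 0.05 when ZT20 was set against the mean of the other 5 time points. Groups of 3 libraries were not tested for single outlying libraries.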

How the results depend on the processing

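The 297 calls at ZT20 became 152 with the spread taken from all 36 libraries and 1 at an adjusted p under 0.05, and ranged from 143 to 339 with 1 library left out (143 without control library 3, 151 without IH library 1). The 211 higher genes became 138 under median ratio scaling and 118 with all 36 libraries, and ranged from 90 to 268 with 1 library left out. The 86 lower genes became 165 under median ratio scaling, 155 under quantile normalization, 136 with the replicate block, 34 with all 36 libraries and 40 with 35 libraries, and ranged from 45 to 104. With the replicate block, which the labels do not show to be a true pairing, 381 genes were called (245 higher), of which 194 were among the 297. The 79 genes of the test against the other time points became 45 at a mean of at least 1 FPKM, 48 against ZT16 alone, 312 against ZT4 alone (chosen after the data were seen), 124 without control library 2 of ZT12 and 0 at an adjusted p under 0.05, and ranged from 38 to 128. Of 71 named genes that passed, 17 passed under every alternative, none reversed, and 884 of 1201 alternative values still passed; the cause of these changes was not tested. Precision is limited by 3 mice per group and, for genes of low FPKM, by depth.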

Other observations

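Glycogen and lipoprotein genes gave no call at ZT20 at P of 0.01 (limma), with 2 of 22 glycogen genes and 0 of 25 lipoprotein genes at an unadjusted P under 0.05. Ppp1r3b, a glycogen-targeting phosphatase subunit of liver, was at 123, 113 and 80.4 FPKM in IH and at 72.8, 77.7 and 64.9 FPKM in control (0.53 ± 0.16, SE). Its IH libraries all lay above its control libraries. Irs2, the insulin receptor substrate induced on fasting, was at 1.53, 1.18 and 3.22 FPKM against 2.42, 4.34 and 3.68 FPKM (−0.62 ± 0.27), with overlap. Selenbp2, a male-biased liver gene, was at 386, 702 and 532 FPKM against 1011, 739 and 1024 FPKM (−0.80 ± 0.23). Nnmt, which methylates nicotinamide, was at 45.6, 46.6 and 47.1 FPKM against 109, 53.8 and 98.7 FPKM (−0.83 ± 0.25).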
